A study of Mus musculus with 6 samples.

Results

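The mitochondrial genome of the mouse was read out as 37 genes, taken as every row of the deposited table placed on the mitochondrial chromosome (MT), out of 78317 gene rows in all. They were 13 messenger RNAs, 2 ribosomal RNAs (rRNAs) and 22 transfer RNAs (tRNAs), with 28 genes on the plus strand and 9 on the minus strand. The choice used chromosome alone and no measured value. RNA sequencing was run on MCEC, a continuously growing mouse cell line labelled as cardiac endothelial. Control libraries came from 3 wild-type samples, and the other 3 from cells with a knockdown of Fat4, labelled ShFat4, Fat4 being an atypical cadherin that acts in planar cell polarity and Hippo signalling. The labels name no other allele or treatment, and do not say whether the controls carried a hairpin, whether the knockdown line was 1 clone, or whether the 3 libraries of a group were separate cultures. The p-values therefore measure the spread between these samples, which may be technical. Each library held between 10305810 and 11870091 estimated counts.

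Mitochondrial DNA is transcribed from both strands into long precursors that cover nearly the whole circle. The tRNAs lie between most of the messenger RNAs and rRNAs, and cutting them out of the precursor releases the RNAs on either side. The messenger RNAs encode core subunits of respiratory complexes I, III and IV and of ATP synthase, which work together with many subunits made from nuclear genes, while the rRNAs and tRNAs serve translation inside the organelle. Most mitochondrial messenger RNAs carry a short poly(A) tail, and endothelial cells are known to draw much of their energy from glycolysis.

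A pair of sequence features bears on how these genes could be counted, and the stretches that show them are printed here, 5′ to 3′ on the coding strand, from GENCODE M21 transcripts (GRCm38). All 37 genes matched that set by gene identifier and had the same MT coordinates there as in the deposited GRCm39 table. The first is overlap: the reading frames of mt-Atp8 (MT 7766 to 7969) and mt-Atp6 (MT 7927 to 8607), both subunits of ATP synthase, share 43 bases. The stretch at MT 7912 to 7984 is shown with the shared bases in capitals and 15 bases on each side.

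mt-Atp8 and mt-Atp6 overlap: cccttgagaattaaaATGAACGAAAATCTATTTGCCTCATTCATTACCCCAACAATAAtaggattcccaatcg

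The second is the presence of near-identical copies of mitochondrial DNA in the nuclear genome. The end of mt-Co3, which encodes a core subunit of complex IV, is shown at bases 724 to 783 of the gene (MT 9330 to 9389). Beside it stands the matching stretch of Gm28437, a pseudogene on chromosome 1, with 0 mismatches.

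mt-Co3: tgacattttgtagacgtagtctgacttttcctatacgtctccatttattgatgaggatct

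Gm28437: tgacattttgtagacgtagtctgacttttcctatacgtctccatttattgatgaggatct

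The end of mt-Co1, the catalytic subunit of complex IV, has nuclear copies at 2 places. Bases 1486 to 1545 (MT 6813 to 6872) are shown with the pseudogene Gm29216 of chromosome 1, which had 0 mismatches, and Gm13340 of chromosome 2, which had 1, given as a capital.

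mt-Co1: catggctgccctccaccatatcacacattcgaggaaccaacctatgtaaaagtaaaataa

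Gm29216: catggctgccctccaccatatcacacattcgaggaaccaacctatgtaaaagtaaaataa

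Gm13340: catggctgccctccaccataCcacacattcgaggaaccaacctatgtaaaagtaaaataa

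A last sequence marks the boundary between the rRNAs and the first messenger RNA. The gene mt-Tl1 (MT 2676 to 2750, plus strand, 75 bases) encodes a leucine tRNA and lies between mt-Rnr2 and mt-Nd1. In mammals the transcription termination factor MTERF1 binds within this gene. The capitals mark its bases 8 to 17, TGGCAGAGCC, which begin the known mammalian termination sequence, and these 10 letters were found on either strand in 1 of the 22 mitochondrial tRNA genes.

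mt-Tl1: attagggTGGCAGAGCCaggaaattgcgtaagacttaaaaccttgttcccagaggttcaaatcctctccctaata

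The 15 mitochondrial rRNAs and messenger RNAs spanned a wide range of levels. Per kilobase, in CPM (counts scaled to a common library total, here by TMM-scaled library sizes) and averaged over the 6 libraries, mt-Nd1 had the highest level in its own row, 10648 CPM, and mt-Rnr2 the next, 7800 CPM. The lowest were mt-Atp8 with 42.5 CPM and mt-Nd6, the single messenger RNA of the minus strand, with 34.5 CPM per kilobase. Both pairs of reading frames that share 1 messenger RNA in mammals were uneven, with the first frame far below the other. Per length, the mt-Nd4 row was 16.3 to 19.3 times the mt-Nd4l row across libraries, and the mt-Atp6 row 86.8 to 106 times the mt-Atp8 row. With the nuclear copies described further on counted in, the levels per kilobase were 1819.8 against 198 CPM for mt-Nd4 and mt-Nd4l, and 8494 against 42.5 CPM for mt-Atp6 and mt-Atp8. The search found no copy row for mt-Atp8, so the copies raised only mt-Atp6 of that pair. The cause of the uneven rows was not tested. The mt-Nd4l frame (MT 9877 to 10173) and the mt-Nd4 frame overlap by 7 bases.

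Library by library, the level of the minus strand was low in both groups. The 9 minus-strand rows together took 0.0464%, 0.0434% and 0.0381% of mitochondrial counts in the controls and 0.0455%, 0.0446% and 0.0510% in the knockdown (two-sided exact permutation test p = 0.3, n = 3). The groups overlapped. No label or header gives the strand setting of the counting, and without it reads from a gene and from RNA of the opposite strand cannot be told apart.

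**Figure D1:**
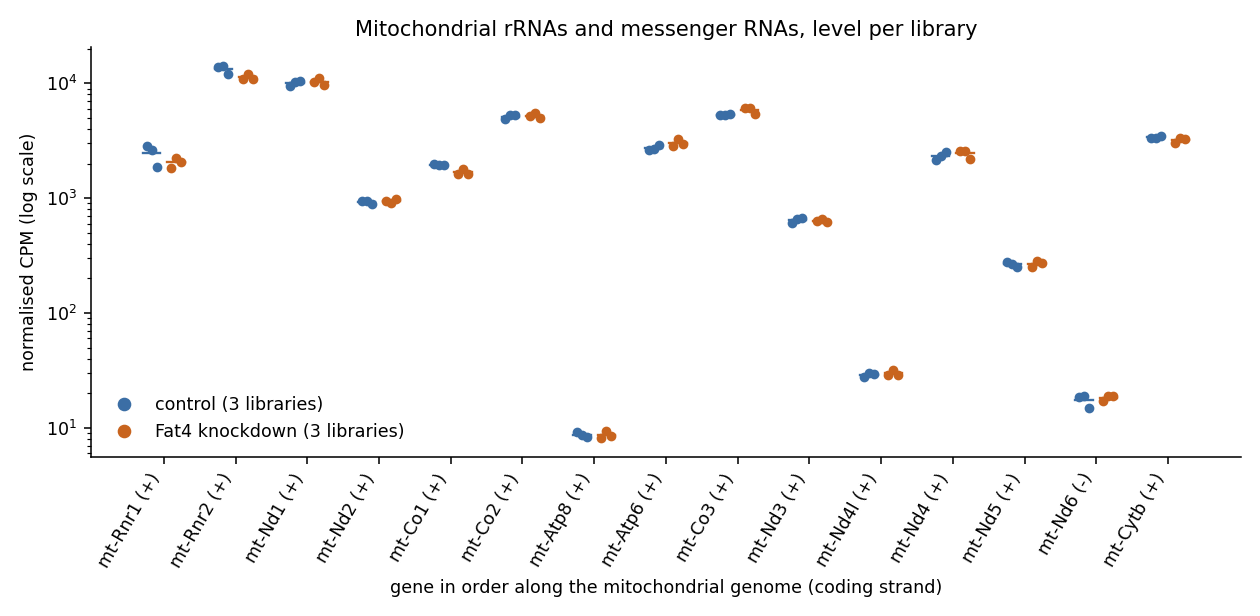
Level of each mitochondrial rRNA and messenger RNA in every library, as normalised CPM on a log axis, with genes in order along the mitochondrial genome and the coding strand in brackets. Points are libraries (blue, 3 control; orange, 3 knockdown) and short bars are group means; control means range from 8.72 CPM for mt-Atp8 to 13353 CPM for mt-Rnr2, and the groups sit close together on this scale.

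Of the 37 genes, 24 had enough counts to be tested: all 13 messenger RNAs, both rRNAs and 9 tRNAs. With edgeR at an adjusted p under 0.05, 0 were higher in the knockdown and 2 were lower, mt-Rnr2 and mt-Co1, which is 8.33% of those tested against 17.4% of all genes tested. By direction, 8.94% of all tested genes were higher and 8.44% lower. The median log2 fold change of the 24 was 0.03, and that of all tested genes was -0.01. The normalised values of the groups did not overlap for 5 of them (mt-Rnr2, mt-Ti, mt-Co1, mt-Co3 and mt-Cytb), or 20.8%, against 34.9% of all tested genes. At an unadjusted p under 0.05 edgeR gave 4 of the 24, and DESeq2 called the same number as edgeR at its adjusted threshold, 2. The direction of the smaller values changed with the setting, and the cause was not tested. With library size alone the median of the 24 was -0.02, where that of all genes was -0.07. After a joint correction for GC content and length the median of the 24 was -0.20, with 0 higher and 5 lower (mt-Rnr1, mt-Rnr2, mt-Co1, mt-Nd3 and mt-Cytb). Mitochondrial genes are poor in GC, with a median of 35.8% against 49.4% over all tested genes, and 74.1% of tested genes lay above the highest of them.

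The sum over the genome moved little. All mitochondrial rows together took 4.84%, 5.09% and 4.96% of counts in the controls and 4.52%, 4.85% and 4.49% in the knockdown. The highest knockdown library lay just above the lowest control, and the means of 4.96% ± 0.13 and 4.62% ± 0.20 (SD, n = 3) did not pass a two-sided exact permutation test (p = 0.2, adjusted p = 0.429 over 15 such measures). For 3 samples in each group the exact permutation test can give no p under 0.1. In bulk RNA, fewer cells of a kind and less RNA per cell cannot be told apart, and neither can fewer mitochondria.

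Of the difference in mean share of -0.343 percentage points, -0.298 was in the rRNA rows. The large rRNA gene mt-Rnr2 (ENSMUSG00000064339, MT 1094 to 2675), which encodes the 16S RNA of the mitochondrial ribosome, had 13766, 14154 and 12140 CPM in the controls and 10949.5, 12035 and 10996.5 CPM in the knockdown. All 3 knockdown libraries lay below all 3 controls, with control replicate 3 next to knockdown replicate 2. The means were 13353 ± 1069 and 11327 ± 614 CPM (SD, n = 3), and the log2 fold change of -0.24 (SE 0.064) passed the edgeR test (adjusted p = 0.0181). Leaving out a single library ended that call for control replicate 2 (adjusted p = 0.139), knockdown replicate 1 (0.0884) and knockdown replicate 3 (0.0624).

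The small rRNA gene mt-Rnr1 (ENSMUSG00000064337, MT 70 to 1024), which encodes the 12S RNA, had 2862, 2648 and 1856 CPM in the controls and 1841, 2257 and 2063 CPM in the knockdown. Control replicate 3 lay well below the other controls and within the knockdown range. The log2 fold change was -0.26 (SE 0.17), which did not pass the edgeR test (adjusted p = 0.371), and without control replicate 3 it was -0.42 and passed (adjusted p = 0.00275). Of the rRNA counts, mt-Rnr1 made up 15.4% ± 2.0 in the controls and 15.3% ± 0.81 in the knockdown (SD, n = 3), with a two-sided exact permutation p = 1.

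As a share of all counts the rRNAs took 1.67%, 1.71% and 1.45% in the controls and 1.24%, 1.39% and 1.3004% in the knockdown, and the messenger RNAs took 3.17%, 3.37% and 3.50% against 3.27%, 3.46% and 3.18%. The rRNA shares did not overlap, while the messenger RNA shares interleaved. The difference in rRNA share reached the smallest p of the two-sided exact permutation test (p = 0.1, adjusted p = 0.429 over 15 measures, n = 3), and for the messenger RNAs the same test gave p = 0.8. Within mitochondrial counts, rRNAs made up 34.4%, 33.7% and 29.3% in the controls and 27.5%, 28.7% and 29.0% in the knockdown (exact permutation p = 0.1), so control replicate 3 stood close to the knockdown on this measure too.

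An rRNA row of the nuclear genome moved the same way. Rn18s-rs5, a copy of the cytosolic 18S rRNA on chromosome 17 (40157244 to 40159092), which was picked after its values had been seen, had 1121, 882 and 818 CPM in the controls and 508, 689 and 650.4 CPM in the knockdown. Again the groups did not overlap, and the log2 fold change was -0.61 (SE 0.15, edgeR adjusted p = 0.0354). That call was lost with the replicate block (adjusted p = 0.152) and without control replicate 2 (0.0503) or knockdown replicate 3 (0.0694). The libraries were made from messenger RNA, per the labels' protocols, and the part of differing rRNA carry-over between libraries in the mt-Rnr2 value was not tested.

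**Figure D2:**
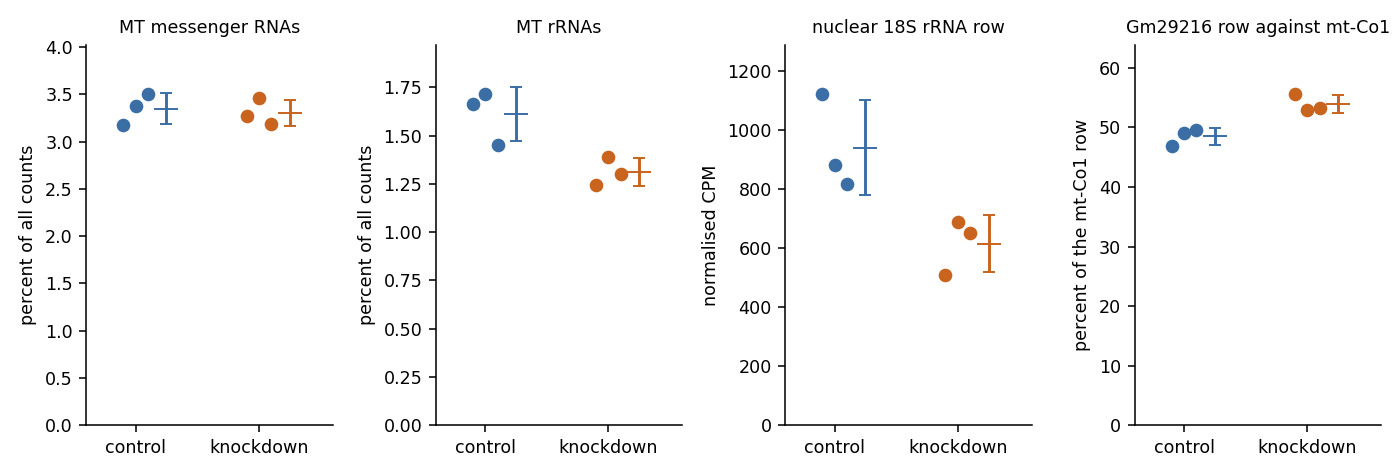
The 4 measures in each library, with points for the 3 control (blue) and 3 knockdown (orange) libraries and bars for the mean ± SD: mitochondrial messenger RNAs and rRNAs as percent of all counts, the nuclear 18S row in normalised CPM, and the Gm29216 row as percent of the mt-Co1 row. Messenger RNA shares overlap between the groups, and the other panels show groups that do not.

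Among the messenger RNAs, those of complex IV differed most from one another. This complex is the terminal oxidase of the respiratory chain, and its 3 mitochondrial subunits form the catalytic core. The mt-Co1 row (ENSMUSG00000064351, MT 5328 to 6872) held 1972, 1945 and 1949.6 CPM in the controls and 1620.3, 1798 and 1638 CPM in the knockdown. The controls lay within a narrow band and all knockdown libraries were below it, with a log2 fold change of -0.21 (SE 0.058, edgeR adjusted p = 0.0183). This call too was lost without control replicate 2 (adjusted p = 0.0868), knockdown replicate 1 (0.0854) or knockdown replicate 3 (0.0644).

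The mt-Co3 row (ENSMUSG00000064358, MT 8607 to 9390) went the other way, with 5312, 5298 and 5350.5 CPM in the controls and 6050.3, 6086 and 5383 CPM in the knockdown. The groups did not overlap, but knockdown replicate 3 lay next to the controls. The log2 fold change of 0.13 (SE 0.058) did not pass the edgeR test (adjusted p = 0.127), and it was 0.19 and passed without knockdown replicate 3 (adjusted p = 0.038), but turned to -0.12 after the GC and length correction. The third gene, mt-Co2, had a log2 fold change of 0.03 and overlapping groups.

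For ATP synthase, mt-Atp6, which encodes subunit a of its membrane part, had 2643, 2698 and 2928 CPM in the controls and 2836, 3264.5 and 2974 CPM in the knockdown. The groups overlapped and the log2 fold change of 0.13 did not pass the edgeR test (adjusted p = 0.163). Its small partner mt-Atp8 had a log2 fold change of -0.01.

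The single complex III gene, mt-Cytb, encodes cytochrome b. It had 3323, 3339.8 and 3476 CPM in the controls and 3049, 3316 and 3294 CPM in the knockdown. The groups just failed to overlap, and the log2 fold change of -0.07 did not pass the edgeR test (adjusted p = 0.433).

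The 7 genes of complex I, the proton-pumping entry point for NADH, stayed within a narrow range. Their log2 fold changes ran from -0.02 for mt-Nd3 to 0.07 for mt-Nd6, 6 of the 7 were above 0, and the groups overlapped in every one. The most abundant, mt-Nd1, had 9498, 10259.8 and 10376 CPM in the controls and 10352, 11055 and 9603.5 CPM in the knockdown. Of the controls, replicate 1 lay just below the knockdown range and the other 2 inside it. After the GC and length correction all 7 had negative values, from -0.28 for mt-Nd3 to -0.10 for mt-Nd4.

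**Figure D3:**
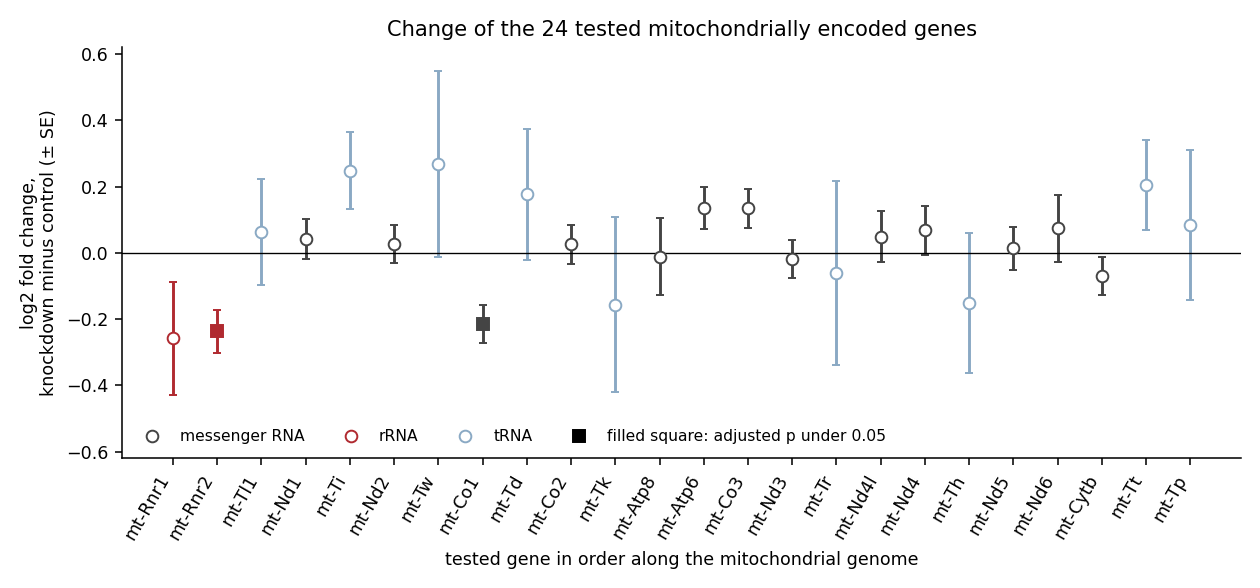
Log2 fold change (knockdown minus control) ± SE of the 24 tested mitochondrial genes in order along the genome, with messenger RNAs in black, rRNAs in red and tRNAs in blue. Filled squares are the 2 genes with an adjusted p under 0.05, mt-Rnr2 (-0.24) and mt-Co1 (-0.21), and the remaining values lie between -0.26 and 0.27.

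Few tRNAs were measured well, and their position went with whether they passed the filter on low counts. Of 10 plus-strand tRNA genes that lie directly after an rRNA or a messenger RNA, 8 had enough counts to be tested. None of the 4 that follow another tRNA or start the genome did, and of the 8 on the minus strand 1 did, mt-Tp, a proline tRNA. The 13 tRNAs left untested had between 0.5 and 36 counts over all 6 libraries. Mature tRNAs are shorter than most sequencing fragments and carry no poly(A) tail, and whether these counts came from mature tRNAs or from precursors was not tested.

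The highest of the tested tRNAs was mt-Tt, a threonine tRNA directly after mt-Cytb, with 8.14, 9.03 and 7.02 CPM in the controls and 9.13, 10.8 and 7.97 CPM in the knockdown. The isoleucine tRNA mt-Ti, which overlaps the end of mt-Nd1 by 2 bases, had 7.56, 8.24 and 7.55 CPM against 8.51, 9.97 and 9.32 CPM. Its groups did not overlap, and the log2 fold change of 0.25 (SE 0.12) did not pass the edgeR test (adjusted p = 0.158). The log2 fold changes of the 9 tested tRNAs ran from -0.16 (mt-Tk) to 0.27 (mt-Tw), and 0 passed edgeR's test, with 1 at an unadjusted p under 0.05. At the boundary gene mt-Tl1 whose sequence is printed with its 10 capitals, the level was 4.89, 4.71 and 3.74 CPM in the controls and 4.63, 4.89 and 4.3 CPM in the knockdown, with overlapping groups and a log2 fold change of 0.06.

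Rows for nuclear copies of these genes held many counts, and whether their reads came from the copies or from mitochondrial RNA was not tested. A search for transcripts at least 95% identical over at least 100 bases, together with rows that overlap such a copy by at least 90 bases on the same strand, found 13 nuclear rows for 9 mitochondrial genes. These rows took 1.57% ± 0.067 of all counts in the controls and 1.59% ± 0.066 in the knockdown (SD, n = 3). Of the nonzero values in mitochondrial rows, 63.8% were not whole numbers (tolerance 1e-06), against 29.0% in all rows. No label or header says how the counting treated reads that fit several places.

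On chromosome 1 (GRCm39), 7 copies lie one after another on the minus strand, from Gm28439 at 24650616 to Gm29216 ending at 24655278, in the order of the mitochondrial genes they match from mt-Nd4 back to mt-Co1. Among them, 3 mirrored their partner almost count for count. The Gm28437 row held 100% to 100.01% of the count of mt-Co3 across libraries, the Gm28661 row 100.02% to 100.04% of mt-Co2, and the Atp6-ps row 100.09% to 100.14% of mt-Atp6. Gm10222 held 98.94% to 100.08% of mt-Nd4l. The stretches printed for mt-Co3 and Gm28437 belong to the first of these. The mt-Nd3 count recurred in a pair of overlapping rows, Gm28438 with 50.23% to 50.36% of it and a long noncoding RNA without a symbol with 50.26% to 50.37%.

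Copies with mismatches held less. On chromosome 2, Gm13341 held 2.07% to 2.27% of mt-Co2, Gm13340 9.13% to 10.1% of mt-Co1 and Gm13339 7.37% to 8.07% of mt-Nd2, with identities of 95.91%, 97.61% and 96.67%. The chromosome 13 copy of mt-Nd5, Gm4076, held 0.30% to 0.55% of its partner. Identity alone did not set the share, since Gm28439 matched the first 876 of 1378 bases of mt-Nd4 at 100% and held 3.86% to 5.02% of it.

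**Figure D4:**
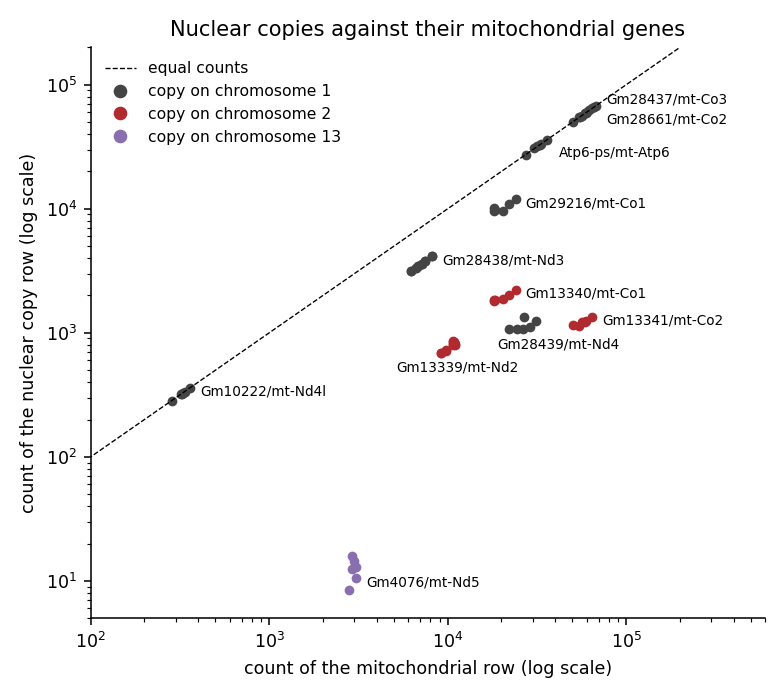
Count of each nuclear copy row against the count of its mitochondrial gene, with 1 point per library on log axes, coloured by the chromosome of the copy, and a dashed line for equal counts. The chromosome 1 copies of mt-Co2, mt-Co3, mt-Atp6 and mt-Nd4l lie on the line or close to it, and the other copies, Gm13341 of mt-Co2 among them, lie below it; a pair of rows without a symbol lies at nearly the same points as Gm28438 and Gm13339 and is not labelled.

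Counting the copies with their genes changed the order of the levels. Per kilobase, mt-Co2 went from 7571 CPM in its own row to 15305 CPM, mt-Co3 from 7117 to 14235 CPM and mt-Atp6 from 4245 to 8494 CPM, which put mt-Co2 and mt-Co3 above mt-Nd1. Added together, mitochondrial and copy rows took 6.53% ± 0.17 of counts in the controls and 6.21% ± 0.26 in the knockdown (SD, n = 3), with a two-sided exact permutation p = 0.2. As percent of the mitochondrial messenger RNA counts with copies, complex I had 31.5% ± 0.55 and 31.3% ± 0.33 and complex IV 50.01% ± 0.63 and 50.1% ± 0.72. Complex III had 7.01% ± 0.12 and 6.46% ± 0.44 and ATP synthase 11.5% ± 0.37 and 12.2% ± 0.65 (exact permutation p = 0.2 for each).

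Copies were looked at more closely for mt-Co1, the messenger RNA row that passed the test. Gm29216 matches 483 of the 1545 bases of mt-Co1, at 99.79% identity. Its row held 925, 955 and 966 CPM in the controls and 900.5, 952 and 872 CPM in the knockdown, overlapping groups with a log2 fold change of -0.06 (edgeR adjusted p = 0.494). As a share of the mt-Co1 row this was 46.9%, 49.1% and 49.6% in the controls and 55.6%, 52.9% and 53.3% in the knockdown, groups that did not overlap (two-sided exact permutation test p = 0.1, adjusted p = 0.429 over 15 measures, n = 3).

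Taking the Gm29216 value off the mt-Co1 value leaves an estimate for the bases that the chromosome 1 copy does not cover, if reads from the shared bases were counted evenly to both rows. It was 1047, 989.7 and 983 CPM in the controls and 719.8, 846 and 766 CPM in the knockdown, with means of 1007 ± 35.3 and 777 ± 64.0 CPM (SD, n = 3). Here the groups stood apart, with a log2 ratio of the means of -0.37, against -0.06 over the 3′ stretch that Gm29216 shares (exact permutation p = 0.1 for the former). With all copies added to their genes, the mt-Co1 log2 fold change was -0.16 and no longer passed the edgeR test (adjusted p = 0.0622). For mt-Rnr2 the search found no copy to add, so this setting could not test its call. The search covered annotated transcripts only, and its minimum length left out every tRNA gene, so a gene without a copy row may still have copies. The part of uneven coverage along the gene in this result was not tested.

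The nuclear genes that serve the organelle were described from lists by role, chosen with earlier results of these data known. Over all tested genes 8.94% rose and 8.44% fell, shares to set beside the counts of each list. Among 22 genes of mitochondrial DNA maintenance and transcription, 1 rose and 0 fell (median log2 fold change 0.12). The riser was Tefm, the mitochondrial transcription elongation factor, with 20.7, 18.9 and 13.1 CPM in the controls and 27.0, 27.0 and 22.4 CPM in the knockdown (log2 fold change 0.55, SE 0.14, edgeR adjusted p = 0.0204). The groups did not overlap, and the call was lost without knockdown replicate 1 or knockdown replicate 2. The mitochondrial RNA polymerase gene Polrmt had a log2 fold change of -0.19 (adjusted p = 0.295) and the DNA-packaging transcription factor gene Tfam one of 0.22 (adjusted p = 0.0695), and neither passed.

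Of 37 genes for processing, modification and stability of mitochondrial RNA, 3 rose and 2 fell (median 0.05). Trnt1, which adds the CCA end to tRNAs, rose by a log2 fold change of 0.38, Fastkd2, an RNA-binding protein needed for assembly of the large mitochondrial ribosomal subunit, by 0.36 and the tRNA-modifying enzyme gene Trit1 by 0.31. Fastk, whose product binds mt-Nd6 RNA, fell by 0.30 on the log2 scale while mt-Nd6 itself had a value of 0.07. Lrpprc, which stabilises mitochondrial messenger RNAs, had a value of 0.04, and Mtpap, their poly(A) polymerase, one of -0.02, and neither passed. With a single library left out the list's count ran from 0 to 5 higher and from 0 to 2 lower, with 0 in either direction without knockdown replicate 2. The call of Trit1 failed in 5 of these 6 fits and with DESeq2 and the replicate block, that of Fastkd2 in 4, that of Trnt1 in 3 and that of Fastk in 1. The other gene that fell, Tbrg4 (-0.20, adjusted p = 0.0466), named here after its value was seen, lost its call under 12 of the settings.

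Lars2 stood out among 23 genes that charge mitochondrial tRNAs, of which 0 rose and 1 fell (median -0.05). It encodes the mitochondrial leucyl-tRNA synthetase, whose substrates include the product of mt-Tl1. Its level was 110.2, 130.6 and 131 CPM in the controls and 83.2, 69.6 and 83.2 CPM in the knockdown, groups well apart, with a log2 fold change of -0.66 (SE 0.083, edgeR adjusted p = 0.00016). The call held under every setting tried. Lars2 shares an identical stretch of 52 bases with Gm15564, a chromosome 16 transcript named after its values were seen, which had a log2 fold change of -1.12 (adjusted p = 0.000193), so reads from that stretch are uncertain. No setting tried changed how those reads were assigned. Of 12 translation factors and insertion factors and of 6 tested regulators of mitochondrial biogenesis, 0 passed in either direction with the main edgeR fit or DESeq2, and edgeR gave 2 and 1 of them at an unadjusted p under 0.05. With upper-quartile scaling, RLE (another scaling), a filter of at least 10 CPM in 3 libraries, or the GC and length correction, 1 regulator rose. Without control replicate 1, 1 translation factor rose, 1 regulator rose and 1 regulator fell. Among 12 chaperones and proteases, Hspe1, the mitochondrial co-chaperonin, rose by a log2 fold change of 0.50 and the inner membrane protease gene Yme1l1 by 0.27, while the protease genes Spg7 and Lonp1 fell by 0.32 and 0.23 on the log2 scale. The Lonp1 call was lost under 8 of the settings tried, DESeq2, the replicate block and 4 of the 6 fits without 1 library among them.

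More of the nuclear than of the mitochondrial subunit genes of the same complexes passed the test. Of all tested genes, 8.94% were higher. The mitochondrial genes of each complex are too few for 0 higher to be told from that share. For complex I, 16 of 37 nuclear subunit genes rose and 0 fell (median 0.20), beside 0 of 7 mitochondrial ones (median 0.04). The largest rises were Ndufb6 with 0.54, Ndufb1 with 0.53, Ndufb8 with 0.39 and Ndufa7 with 0.38, all accessory subunits. For complex IV, 8 of 11 rose (median 0.23), led by Cox7b (0.41), Cox6c (0.33), Ndufa4 (0.33) and Cox7a2 (0.29), beside 0 of 3 mitochondrial genes higher and 1 lower. For ATP synthase 7 of 17 rose (median 0.26), beside 0 of 2, led among those called by Atp5mg (0.52), Atp5f1e (0.43), Atp5pd (0.34) and Atp5mc3 (0.27). Larger values that did not pass the edgeR test, named after they were seen, were those of Atp5mk (0.76, adjusted p = 0.0809), Atp5mj (0.64, 0.0523) and Atp5me (0.61, 0.0695). For complex III 3 of 9 rose (median 0.14), namely Uqcrh (0.57), Uqcrq (0.29) and Uqcrb (0.21), beside 0 of 1. Of the called genes named here, Ndufb6, Ndufb1, Ndufa7, Cox7b, Cox6c and Uqcrh kept their call under every setting tried. Uqcrb lost its call under 7 settings and changed sign under 1 more. Cox7a2 lost its call under 6, Uqcrq under 4 and Atp5f1e under 3. Ndufb8, Ndufa4 and Atp5pd lost theirs under 2 each, and Atp5mg and Atp5mc3 under 1 each.

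Complex II, which has no mitochondrial gene, had 0 of 4 past the threshold with the main edgeR fit or DESeq2 and 2 at an unadjusted p under 0.05. With library size alone 1 fell, and without control replicate 1, 1 rose. Whether the nuclear and mitochondrial sets differ was not tested.

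These counts varied with the libraries used: for complex I they ran from 4 to 21, for complex III from 1 to 6, for complex IV from 3 to 8 and for ATP synthase from 2 to 11. Control replicate 2 was the library left out at the lower end of each range, shared with control replicate 3 and knockdown replicate 1 for complex III and with knockdown replicate 2 for complex IV, and control replicate 1 at the upper end, shared with knockdown replicate 3 for complex IV. For Ndufb6, control replicate 1 was the highest control at 203 CPM and control replicate 3 the lowest at 162 CPM, beneath knockdown values of 277, 283 and 238 CPM. The controls fell in this order, replicate 1 to 3, in every other nuclear subunit gene named except Atp5mc3, whose highest control was replicate 2. Cox7b, for example, had 179, 152 and 130 CPM in the controls. The cause of this shared order was not tested. Scaled to the mitochondrial messenger RNA pool, which sets each gene against the mitochondrial messenger RNAs, 7 complex I, 1 complex III, 3 complex IV and 3 ATP synthase genes were higher. After correction for GC content and length, 9 complex I, 3 complex IV, 3 complex III and 9 ATP synthase genes were higher.

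**Figure D5:**
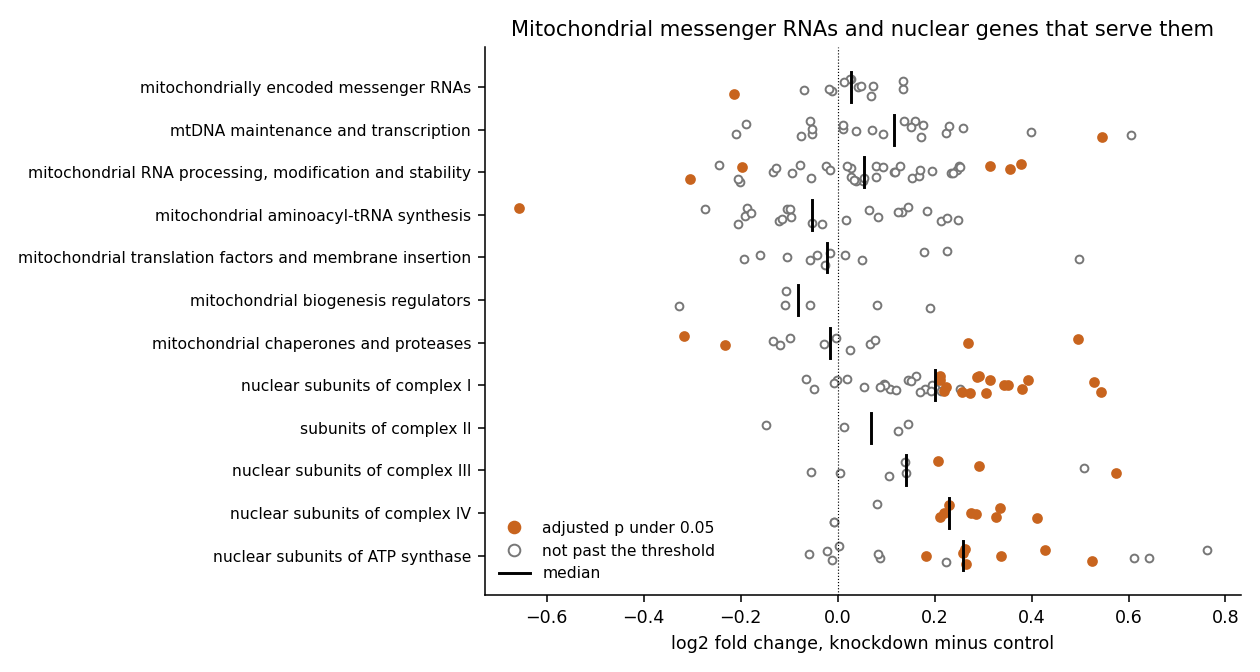
Log2 fold change (knockdown minus control) of each tested gene in the mitochondrial messenger RNA set and in 11 lists of nuclear genes, with filled orange points for an adjusted p under 0.05, open points for the rest and a black bar for the median. Medians of the nuclear subunit lists of complexes I and IV and ATP synthase lie between 0.20 and 0.26, and that of the mitochondrial messenger RNAs at 0.03.

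As checks on the samples, Fat4 itself was low throughout, with 0.97, 1.94 and 2.56 CPM in the controls and 0.76, 0.98 and 0.81 CPM in the knockdown (log2 fold change -1.17, edgeR adjusted p = 0.033), and control replicate 1 lay within the knockdown range. The call of Fat4 was lost under 7 of the settings tried. Of 12 endothelial marker genes, 10 were under 1 CPM in both groups and 6, including Vwf, Erg, Cldn5 and Tie1, had no count. A count of 0 leaves room for at most 3 counts, which is 0.244 to 0.293 CPM depending on the library and covers counting error only. Of 8 mesothelial markers, 0 rose and 3 fell, where 8.44% of all tested genes fell. Their summed level was 1649 to 1743 CPM in the controls and 1462 to 1510.2 CPM in the knockdown. The 3, named after their values were seen, were Lrrn4 (log2 fold change -0.57, edgeR adjusted p = 0.000106), Upk3b (-0.42, 0.000366) and Wt1 (-0.19, 0.0404). The calls of Lrrn4 and Upk3b held under every setting tried. That of Wt1 was lost with DESeq2, with the replicate block and with each library left out. Of 10 cardiomyocyte markers, which mark a cell type rich in mitochondria, 9 were under 1 CPM in both groups, 5 of these with no count. The remaining one was Myl7, which encodes a myosin light chain of the atrium. It rose from 7.62 ± 0.61 to 14.8 ± 2.4 CPM (SD, n = 3, edgeR adjusted p = 0.000228) and made up most of the summed level of 7.71 to 9.74 CPM in the controls and 14.4 to 19.4 CPM in the knockdown. Of 6 fibroblast markers, 4 were tested, of which 0 rose and 1 fell. It was Col1a1, named after its value was seen, which went from 1960 ± 47.5 to 1510 ± 78.9 CPM (SD, n = 3). The log2 fold change was -0.38 (edgeR adjusted p = 0.000685), and the call held under every setting tried. The part of these differences in the mitochondrial values was not tested.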

How the data were processed

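Messenger RNA of 3 control and 3 Fat4 knockdown samples was sequenced as tagmented cDNA, per the labels' protocols. Per the submitters' processing notes, the genome was GRCm39 and the tools were STAR 2.7.11, SAMtools 1.22.1, fastp 0.24.0, FastQC 0.12.1 and MultiQC 1.32. The read counter, its strand setting, its annotation and its rule for reads that fit several places are not given in the sources used. The deposited table holds estimated counts per gene for 78409 rows, of which 92 spike-in rows were left out. The CPM values, as deposited by the authors, equal each count over the library total, and gene lengths are those the authors deposited. A count of 0 allows 3 counts, or 0.244 to 0.293 CPM per library.

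Counts were rounded, filtered with filterByExpr, scaled by TMM and tested over 13372 genes by edgeR 4.0.16's quasi-likelihood test (R 4.3.3, knockdown against control, no block), with p-values adjusted by Benjamini-Hochberg and a threshold of 0.05. Each SE is the log2 fold change over the square root of F. CPM in the text use TMM-scaled library sizes, and levels per kilobase use the deposited length. Single measures were compared by two-sided exact permutation tests. Nuclear copies were found with BLAST 2.17.0 against GENCODE M21 transcripts. The members and lists were chosen with earlier results of these data known. The text names every MT messenger RNA and rRNA, some of the MT tRNAs, and Fat4. From each nuclear list by role it names up to 4 changed genes with the largest changes. Polrmt, Tfam, Lrpprc and Mtpap, nuclear copies reaching 10 CPM and some cell type markers are named too. The remaining names are genes marked as chosen after their values were seen and Gm4076, likewise chosen. Coordinates are GRCm39, counted from 1.

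Alternatives were other scalings, filters, DESeq2 1.42.0, limma-voom from limma 3.58.1, a replicate block, rounding down and each library left out. Adding nuclear copies to their genes and correcting for GC content and length (mgcv 1.9.3) were chosen after seeing the data. Tested on data simulated for the knockdown comparison over 13217 genes, the workflow called 36 of 50 genes changed 1.3-fold and 50 of 50 at 1.5-fold or above (1.5, 2 and 3), and 10 of its 196 calls were false. The simulation gave every gene the same dispersion (spread beyond counting error) and changed only genes above 10 CPM. Its rates therefore do not cover changes in lower genes, or dispersion that differs between genes.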

Additional observations from a re-analysis of the deposited data

How the results depend on the processing

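Under the scalings, filters, tools, block and rounding tried, 2 mitochondrial genes were called each time, mt-Rnr2 and mt-Co1, while the count over all genes was 1498 with DESeq2 against 2324. With library size alone, 855 genes were higher and 1737 lower, against 1195 and 1129, and with scaling to the mitochondrial messenger RNA pool, 652 and 1056. Leaving out 1 library gave 1029 to 3077 genes in all and 0 to 3 mitochondrial genes: 0 without control replicate 2 or knockdown replicate 1, mt-Co3 alone without knockdown replicate 3, and mt-Rnr1 in addition without control replicate 3. Adding the nuclear copies left 1 mitochondrial gene, mt-Rnr2, to which no copy row was added, since mt-Co1 then missed the threshold. The GC and length correction gave 5, for which the cause was not tested.

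Deviations of same-numbered libraries from their group means correlated at -0.211, -0.052 and -0.05, so the numbers give no pairing. The replicate block gave 2001 genes, 2 of them mitochondrial, and ended no mitochondrial call. No library correlated best with its own number.

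Several values changed sign with the setting, and the cause was not tested. With library size alone these were mt-Nd1 (-0.0164), mt-Nd2 (-0.0277), mt-Co2 (-0.0321), mt-Nd5 (-0.0414), mt-Nd4l (-0.008) and Lrpprc (-0.0186). With the mitochondrial messenger RNA pool they were mt-Nd2 (-0.0072), mt-Co2 (-0.0123) and mt-Nd5 (-0.025), and with upper-quartile scaling mt-Atp8 (0.0026). After the GC and length correction they were mt-Tl1 (-0.234), mt-Nd1 (-0.187), mt-Nd2 (-0.164), mt-Tw (-0.0649), mt-Co2 (-0.244), mt-Atp6 (-0.119), mt-Co3 (-0.116), mt-Nd4 (-0.098), mt-Nd5 (-0.129), mt-Nd6 (-0.167), mt-Tt (-0.0964), mt-Tp (-0.206), mt-Nd4l (-0.265) and Uqcrb (-0.0153). Across single libraries left out, the range crossed 0 for mt-Co2 (-0.0118 to 0.0655), mt-Atp8 (-0.0717 to 0.0336), mt-Nd3 (-0.0569 to 0.0054), mt-Tr (-0.319 to 0.155), mt-Tp (-0.0791 to 0.267), mt-Tl1 (-0.0569 to 0.129), mt-Nd5 (-0.0328 to 0.0656), mt-Nd6 (-0.0333 to 0.143), mt-Nd1 (-0.0089 to 0.0928), mt-Tw (-0.0049 to 0.45), mt-Th (-0.276 to 0.0224) and Lrpprc (-0.0143 to 0.0681). The difference in mitochondrial share kept its sign in each such fit, from -0.459 to -0.277 percentage points, and was -0.0341 for messenger RNA rows as a share of protein-coding counts, where the rRNA rows are left out. Low counts kept 13 tRNAs out of the tests.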
